A study of Rattus norvegicus with 12 samples.

Results

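The genes whose symbol begins with Kcn, which encode the subunits of potassium channels, were followed in cultured neonatal rat ventricular myocytes (NRVMs). Members were chosen by the symbol alone, which gave 84 of the 18469 genes in the count table. The myocytes came from Sprague-Dawley rats and fell into 4 groups of 3 libraries each. The groups were siNeg (control siRNA, no PE), siNeg PE (control siRNA and PE), siSlc25a26 (siRNA against Slc25a26, no PE) and siSlc25a26 PE (the same siRNA and PE). PE is phenylephrine, an agonist of alpha1-adrenergic receptors that makes these cells hypertrophic; it was given for 36 h from 12 h after transfection, and all 4 groups, controls included, were transfected. The culture was primary; the methods of the study describe separating cardiomyocytes from fibroblasts on a density gradient, and each library could still hold RNA of other heart cells, and neither the number of siRNA sequences nor the litters were given in the sources used here.

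Slc25a26, the mitochondrial carrier of S-adenosylmethionine and the target of the siRNA, was at 31.4 ± 2.01 CPM (SD, n = 3) in siNeg and 15.1 ± 0.612 CPM in siSlc25a26. CPM here is a gene's count divided by the effective size of its library, so it compares libraries and not genes of different length. With PE it stood at 102 ± 14.1 CPM under siNeg and 102 ± 3.68 CPM where the label reads siSlc25a26 PE. The log2 change was −1.08 (SE 0.08, adjusted p = 1.08e-05) without PE and −0.01 (SE 0.10, adjusted p = 0.969) under PE, by edgeR's quasi-likelihood test. The target was therefore not lower in the libraries labelled siSlc25a26 PE, which are named by their label throughout. Libraries held 24770972 to 28709049 counts, of which Kcn genes took 0.0707% to 0.131%.

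Potassium channels let potassium leave the cell and so end the action potential and hold the resting potential. In ventricular myocytes the transient outward current comes from Kv4 pores (Kcnd2, Kcnd3) with the auxiliary subunit KChIP2 (Kcnip2), the delayed rectifier currents from Kcnh2 and from Kcnq1 with Kcne subunits, and the resting potential from inward rectifiers of the Kcnj family. Loss of the transient outward current and a longer action potential are well known features of hypertrophied heart muscle.

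Promoter sequences are shown for 3 members with large changes that are described below, Kcnip2, Kcnj10 and Kcnt1. Each is the 250 bases before a RefSeq start in the GRCr8 build of the rat genome, written 5′ to 3′ on the gene's strand. They lie at chr1:254613899-254614148 (minus strand) for Kcnip2, chr13:87334260-87334509 (plus strand) for Kcnj10, and chr3:29081089-29081338 and chr3:29095846-29096095 (both plus strand) for 2 starts of Kcnt1. Of 5 motifs searched on both strands, capitals mark matches to the letters of AP-1, GATA, MCAT and CRE, and the GC box is left in lower case.
Kcnip2: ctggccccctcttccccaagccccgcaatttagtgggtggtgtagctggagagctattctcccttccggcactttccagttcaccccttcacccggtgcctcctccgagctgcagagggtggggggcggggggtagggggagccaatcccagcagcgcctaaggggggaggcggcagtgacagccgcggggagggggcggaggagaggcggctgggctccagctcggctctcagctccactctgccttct
Kcnj10: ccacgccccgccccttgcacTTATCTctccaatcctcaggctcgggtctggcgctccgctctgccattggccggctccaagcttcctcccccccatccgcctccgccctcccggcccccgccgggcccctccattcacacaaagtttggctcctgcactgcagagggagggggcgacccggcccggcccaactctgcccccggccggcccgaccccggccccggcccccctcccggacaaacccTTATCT
Kcnt1, first start: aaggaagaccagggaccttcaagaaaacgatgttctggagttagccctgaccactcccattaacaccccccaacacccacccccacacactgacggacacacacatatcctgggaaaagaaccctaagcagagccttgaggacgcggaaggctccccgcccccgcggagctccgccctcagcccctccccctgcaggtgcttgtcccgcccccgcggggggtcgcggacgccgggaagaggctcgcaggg
Kcnt1, second start: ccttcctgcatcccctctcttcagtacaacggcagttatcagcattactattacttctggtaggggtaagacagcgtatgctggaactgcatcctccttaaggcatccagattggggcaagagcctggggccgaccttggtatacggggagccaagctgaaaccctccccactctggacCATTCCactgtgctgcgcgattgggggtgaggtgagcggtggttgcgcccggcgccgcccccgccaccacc
The letters of AP-1 were TGACTCA, which stood in 4.05% of 33469 rat promoter windows of this length. The GATA letters AGATAA were found in 10.3% of them. For MCAT the letters were CATTCC, found in 12.1%, and for CRE they were TGACGTCA, found in 1.59%. The Kcnj10 window held the GATA letters 2 times, with the far end of each match 6 and 230 bases upstream of the start, and the second Kcnt1 window held MCAT 1 time. The windows of Kcnip2 and of the first Kcnt1 start held none of these 4 motifs. Over the 62 windows found for 57 of the 84 members, 1 held AP-1, 7 GATA, 7 MCAT and 0 CRE. The GC box letters GGGCGG were in 30 of these 62 windows and in 30.5% of all windows. They stood 2 times each in the Kcnip2 and Kcnj10 windows, 3 times in the first Kcnt1 window and 1 time in the second. These are matches of letters and not measured binding sites.

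Levels of different genes were compared in FPKM, a read density that allows for gene length and library size. A mean of 10 FPKM or more over the 12 libraries was reached by 9 members, 1 to under 10 by 11, 0.1 to under 1 by 30 and less than 0.1 by 34. Kcng2, a silent modifier subunit that makes no channel alone, stood first at a mean of 114 FPKM and made up 30.9% to 35.3% of the summed Kcn FPKM of each library. The delayed rectifier pores Kcnh2 (47.5 FPKM) and Kcnq1 (30.3 FPKM) followed, and then the 2-pore background channel Kcnk3 (23.0 FPKM). Next came the inward rectifiers Kcnj5 (22.7 FPKM), the acetylcholine-gated atrial type subunit, Kcnj11 (21.4 FPKM), the pore of the ATP-sensitive channel, and Kcnj12 (12.2 FPKM), with the auxiliary subunits Kcne4 (15.4 FPKM) and Kcnip2 (11.5 FPKM) among them. Kcng2, Kcnh2, Kcnq1, Kcnk3, Kcnj5, Kcnj11, Kcne4 and Kcnj12 together held 78.2% to 86.1% of the summed Kcn FPKM. The Shaker-type pore Kcna4 (2.755 FPKM), the 2-pore channel Kcnk2 (2.25 FPKM) and the small-conductance pore Kcnn1 (2.05 FPKM) stood lower and were called in none of the 5 tests.

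Several channels known from adult or smooth muscle were barely read. Kcna5, a pore of the ultrarapid current, had at most 4 counts in any library, the calcium-activated pore Kcnma1 at most 3 and the inward rectifier Kcnj4 at most 7. Of 84 members, 41 passed the filter on low counts in all 5 tests, 8 in 1 to 4 of them and 35 in none, so that the counts given below are over the members tested and not over the family. A member with few counts could pass through the group where it was high. Kcnj10, Kcnt1, Kcnip4, Kcnk1, Kcnab1, Kcng4, Kcnmb4 and Kcnq3 did so in tests described below. The p-values of such members are not independent of that passage. In RefSeq, 41 members overlap another gene, and the strand setting of the counting was not given. Among the genes that changed, Kcnd2 overlaps Kcnd2l1, Kcnab2 overlaps Nphp4, Kcnmb1 overlaps Kcnip1 and Kcnv2 overlaps Pum3, and their reads could not be told apart by strand.

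**Figure D1:**
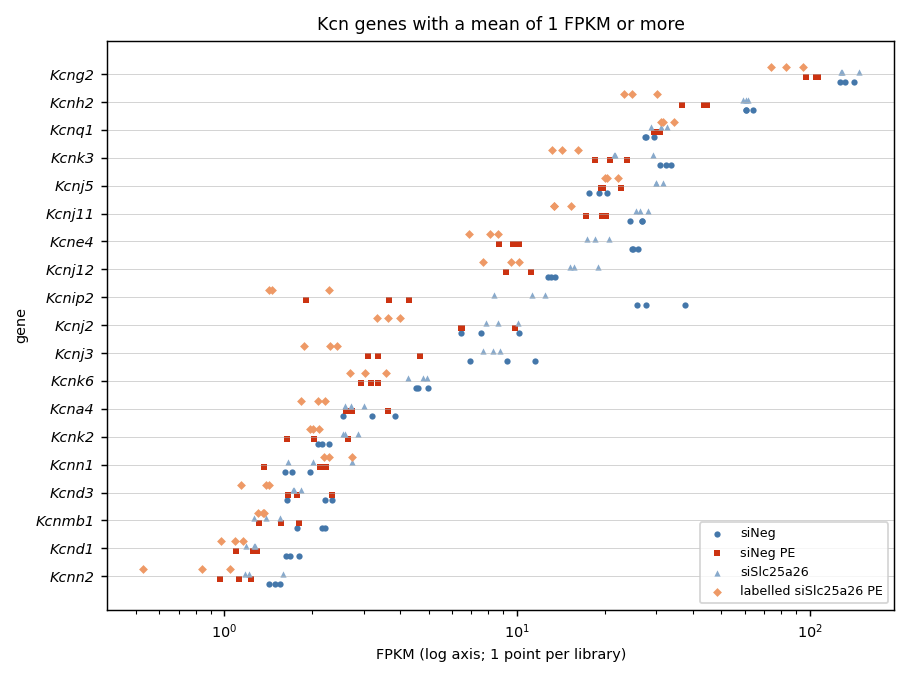
FPKM of 19 members with a mean of 1 FPKM or more, on a log axis, with 1 point per library and a colour and marker per group. Kcng2 lies at the top in every group, and the points of Kcnip2 spread furthest, from 25.6 to 37.6 FPKM in siNeg to 1.43 to 2.29 FPKM in the libraries labelled siSlc25a26 PE.

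The summed Kcn FPKM was 409, 428 and 439 in the siNeg libraries and 281, 304 and 318 in siNeg PE. It was 396, 398 and 433 in siSlc25a26 and 230, 243 and 269 in the libraries labelled siSlc25a26 PE. The groups without PE did not overlap those with PE. On log2(FPKM + 1) the median change of all genes with PE was −0.03 under siNeg and −0.13 in the siSlc25a26 arm. The part of that shift in the sums was not tested. Without Kcng2 the sum was 282 to 297 FPKM in siNeg and 184 to 212 FPKM in siNeg PE, so the lower sum was not carried by that gene alone. In bulk RNA, fewer cells of a type and less RNA per cell cannot be told apart.

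The first question was how PE changed the channel genes under the control siRNA. A gene was called when its fold change exceeded 1.5 and its adjusted p was below 0.05 in edgeR's quasi-likelihood test, adjusted over all genes tested. Of 45 members tested, 2 rose and 8 fell, or 22.2% of them, where 20.7% of all 13719 genes tested were called (12.4% higher and 8.24% lower). A further 8 members were lower and 0 higher by adjusted p alone, with a fold under 1.5. That rule took 49.5% of all genes, 25.2% higher and 24.3% lower. The log2 change was below 0 for 71.1% of the members tested and 49.9% of all genes, with medians of −0.31 and 0.00.

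Kcnip2, the KChIP2 subunit that brings Kv4 pores to the surface, fell most. It was at 57.1, 77.9 and 53.4 CPM in siNeg and 9.36, 7.91 and 4.05 CPM in siNeg PE. The groups lay far apart, and the log2 change was −3.16 (SE 0.26, adjusted p = 6.90e-05), an 8.93-fold lower level. Kcnip4, a relative of the same calcium-binding family, had 34, 39 and 39 counts in siNeg and 5, 6 and 9 in siNeg PE. Every siNeg PE library lay below every siNeg library for Kcnip4, and the log2 change was −2.38 (SE 0.30, adjusted p = 0.000473).

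Of the Kv4 pores, Kcnd2 was the one called higher with PE. It was at 2.84, 2.71 and 3.31 CPM in siNeg and 3.86, 4.84 and 5.16 CPM in siNeg PE, with no overlap, and rose by a log2 change of 0.63 (SE 0.16, adjusted p = 0.0134). That call was lost without siNeg replicate 2 or siNeg PE replicate 3, where the log2 change went down to 0.54 and the adjusted p up to 0.0509. Kcnd3, the other Kv4 pore of the ventricle, was at 13.4 ± 2.36 and 12.8 ± 2.14 CPM (log2 change −0.08, SE 0.17, adjusted p = 0.717). Kcnd1, the remaining Kv4 pore, was at 6.05 ± 0.324 and 4.49 ± 0.470 CPM with no overlap, and was lower by adjusted p alone (log2 change −0.44, SE 0.12, adjusted p = 0.0181). In FPKM, the ratio of Kcnip2 to Kcnd2 plus Kcnd3 was 8.01, 11.6 and 12.9 in the siNeg libraries and 0.519, 1.23 and 1.64 in siNeg PE.

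Kcne4, a subunit that dampens Kcnq1 channels, was at 47.3, 50.03 and 46.04 CPM in siNeg and 19.9, 17.8 and 19.3 CPM in siNeg PE. The groups were tight and separate, and the log2 change was −1.34 (SE 0.07, adjusted p = 1.02e-05). Kcne1, the classical partner of Kcnq1 in the slow delayed rectifier, was too low to be tested. It had 0, 1 and 2 counts in siNeg and 6, 3 and 8 in siNeg PE, a ratio per library size of 6.04 (95% counting interval 1.75 to 32.2), where a count of 0 allows up to 0.109 to 0.114 CPM in siNeg. Kcnq1 itself was at 78.9, 78.4 and 84.5 CPM in siNeg and 93.4, 88.4 and 86.8 CPM in siNeg PE, which did not overlap but missed the threshold (log2 change 0.14, SE 0.06, adjusted p = 0.0679).

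Kcnj3, which pairs with Kcnj5 in the acetylcholine-gated channel, was at 12.0, 16.6 and 20.4 CPM in siNeg and 5.77, 6.22 and 8.30 CPM in siNeg PE. It fell by 1.28 on the log2 scale (SE 0.21, adjusted p = 0.00181), while Kcnj5 was at 57.4 ± 4.19 and 64.6 ± 4.47 CPM (log2 change 0.16, SE 0.08, adjusted p = 0.133). Kcnk1, a weak 2-pore inward rectifier, had 23, 25 and 25 counts in siNeg and 11, 7 and 6 in siNeg PE (log2 change −1.51, SE 0.31, adjusted p = 0.00473). Kcnk1 passed the low-count filter here only through siNeg, where it was high, so its p-value is not independent of that. Kcna6, a Shaker-type pore, went from 2.24 ± 0.413 to 1.15 ± 0.182 CPM (log2 change −0.98, SE 0.22, adjusted p = 0.00776). For Kcnk1 and Kcna6 too, no siNeg PE library reached a siNeg library.

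The remaining 3 calls were weak. Kcnab1, a beta subunit of Shaker channels, had 6 to 9 counts without PE and 13 to 16 with it (log2 change 0.91, SE 0.32, adjusted p = 0.0452), and lost its call without any single library (adjusted p 0.0724 to 0.142). The small-conductance calcium-activated pore Kcnn3 changed by −0.81 (log2, SE 0.26, adjusted p = 0.0326) and lost its call without siNeg replicate 2 or 3 or siNeg PE replicate 1 or 2 (0.0642 to 0.0933). The silent subunit Kcns3 changed by −0.89 (log2, SE 0.32, adjusted p = 0.0493), with groups that overlapped. It lost its call without siNeg replicate 1, 2 or 3 or siNeg PE replicate 1 or 3 (0.0577 to 0.174).

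Several abundant channels were lower with a fold under 1.5, although Kcnip2 and Kcne4, also among the 9 members at 10 FPKM or more, passed it. Among the 8 members lower by adjusted p alone were Kcng2 (log2 change −0.31, SE 0.06, adjusted p = 0.00333), Kcnh2 (−0.50, SE 0.08, adjusted p = 0.00117), Kcnk3 (−0.57, SE 0.09, adjusted p = 0.00129), Kcnj11 (−0.41, SE 0.08, adjusted p = 0.00310) and Kcnj12 (−0.44, SE 0.08, adjusted p = 0.00257). The 2-pore channel Kcnk6 was another of them. Kcnj2, known as the main ventricular inward rectifier, had a mean of 7.05 FPKM in these libraries, below the 12.2 FPKM of Kcnj12. Kcnj2 was at 40.4, 50.8 and 55.4 CPM in siNeg and 39.5, 39.9 and 55.0 CPM in siNeg PE. Its groups overlapped (log2 change −0.14, SE 0.16, adjusted p = 0.502).

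Markers of other cell types moved with PE as well. The summed level of 10 fibroblast markers was 21550.2 to 23706.5 CPM in siNeg and 11721.8 to 12193 CPM in siNeg PE. Of these, 5 of 10 were called lower (Col1a1, Col1a2, Col3a1, Tcf21 and Thy1) and 0 higher. Col1a1 was the largest part of the sum, at 12681.5 to 14236 CPM in siNeg and 6746.24 to 7303.87 CPM in siNeg PE. Pdgfra, not called, was at 67.3 to 70.6 CPM and then at 79.5 to 97.0 CPM, so the sum does not stand for every marker. Of 8 mural cell markers 5 were lower and 2 higher, of 7 macrophage markers tested 4 were lower, of 7 endothelial markers 2 were lower, of 4 neuron and glia markers 1 was higher, and of 5 atrial or pacemaker markers none was called. Of 10 cardiomyocyte markers 4 rose (Actn2, Myh7, Myl2 and Ttn) and the sum went from 35763.6 to 38079.7 CPM up to 46095.2 to 48062.4 CPM. Myh7 alone went from 9186.57 to 9620.14 CPM up to 17411 to 17747.1 CPM. Myh6, not called, was at 6358.89 to 7831.92 CPM and then at 4569.25 to 5275.6 CPM. No marker of these 7 lists was at 0 in all 12 libraries. The part of these shifts in the channel values was not tested.

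**Figure D2:**
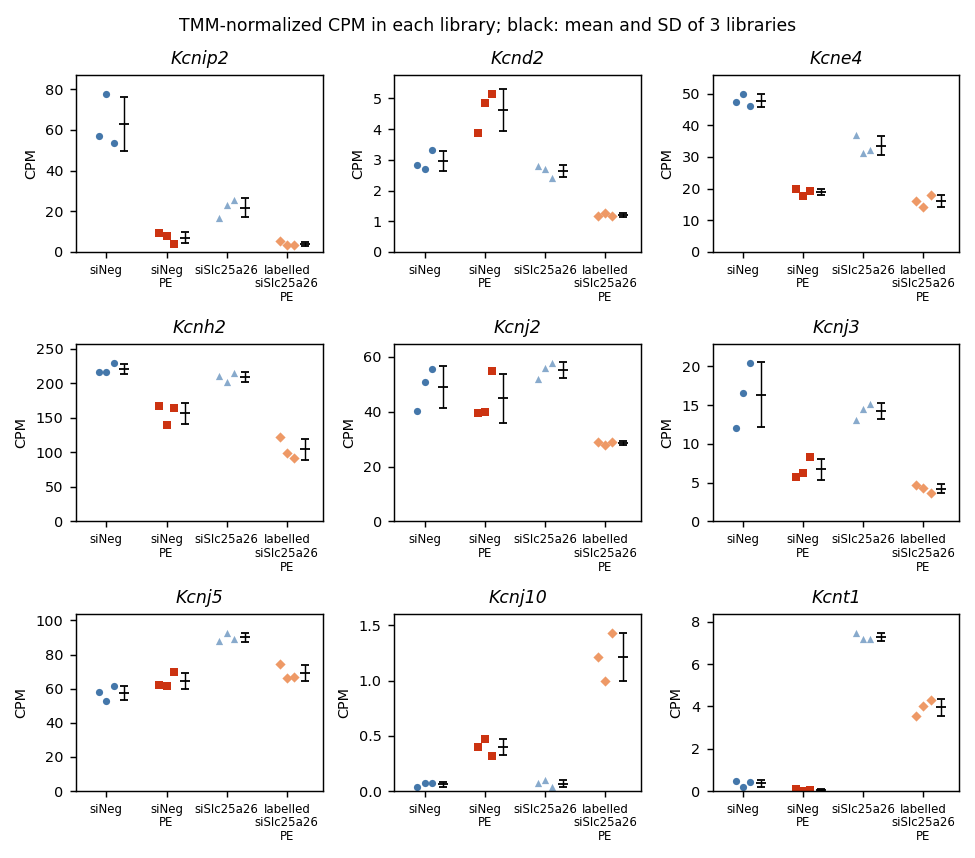
CPM of 9 members in each library, normalized by the trimmed mean of M values (TMM), with the mean and SD of 3 libraries in black beside each group. Kcnip2, Kcne4 and Kcnj3 are lower with PE under both siRNAs, Kcnt1 is high in both groups labelled siSlc25a26, and Kcnd2 is highest in siNeg PE and lowest in the libraries labelled siSlc25a26 PE.

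The second question was what the siRNA against Slc25a26 changed without PE. It shares the siNeg libraries with the comparison above. Of 45 members tested, 3 rose and 5 fell, or 17.8%, where 16.1% of 13829 genes were called (8.92% higher and 7.20% lower). By adjusted p alone, which took 45.0% of all genes (23.3% higher and 21.7% lower), 1 more was higher and 3 more lower. The median log2 change was −0.07 for the members tested and 0.01 for all genes.

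Kcnt1, a sodium-activated potassium channel best known from neurons, rose most. It had 13, 5 and 11 counts in siNeg and 220, 217 and 207 in siSlc25a26. The groups were far apart, with a log2 change of 4.31 (SE 0.23, adjusted p = 1.07e-06) and a ratio per library size of 20.3 (95% counting interval 14.0 to 30.6). In level it went from 0.0567 ± 0.0153 to 1.09 ± 0.0321 FPKM, which put it beside Kcnd1 and Kcnn2 in siSlc25a26. Of its neighbours in GRCr8, Camsap1 was at 80.1 and 91.1 CPM and was not called (log2 change 0.16, SE 0.06, adjusted p = 0.0614). Sohlh1 had 1 count or fewer in each group, too few to show whether it changed. Counts per exon were not analysed here, so which of the 2 starts was used was not measured.

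Kcnip2 fell here too. It was at 16.9, 23.1 and 25.6 CPM in siSlc25a26, below every siNeg library (log2 change −1.55, SE 0.18, adjusted p = 0.000168). Kcnd2 (log2 change −0.19, SE 0.15, adjusted p = 0.340) and Kcnd3 (−0.28, SE 0.13, adjusted p = 0.103) missed the threshold, and Kcnd1 was lower by adjusted p alone (−0.51, SE 0.11, adjusted p = 0.00616). The FPKM ratio of Kcnip2 to Kcnd2 plus Kcnd3 was 3.40, 4.59 and 5.08 in siSlc25a26, between those of siNeg and siNeg PE.

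Auxiliary and silent subunits made up most of the other calls. Kcnab2, a beta subunit of Shaker channels, was at 4.83, 4.46 and 3.47 CPM in siNeg and 2.08, 2.18 and 2.05 CPM in siSlc25a26 (log2 change −1.04, SE 0.17, adjusted p = 0.00112). Kcnv2, a silent subunit, was at 3.70, 4.92 and 4.57 CPM and then at 1.84, 1.89 and 1.74 CPM (log2 change −1.29, SE 0.16, adjusted p = 0.000268). Neither pair of groups overlapped. Kcnmb1, the smooth muscle beta subunit of the large-conductance calcium-activated channel, went from 5.14 ± 0.469 to 2.92 ± 0.149 CPM (log2 change −0.84, SE 0.13, adjusted p = 0.00106), while its pore Kcnma1 had 0 counts in siNeg and 3 in the 3 siSlc25a26 libraries together. Kcnk1 fell to 14, 14 and 11 counts (log2 change −1.05, SE 0.26, adjusted p = 0.0108). The Kcnk1 call was lost with DESeq2, another test of counts, and with limma on log2(FPKM + 1). Kcnmb1 lost its call with limma on log2(FPKM + 1) and on log2(FPKM + 0.1), and Kcnab2 and Kcnv2 on log2(FPKM + 1) alone.

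Kcnj5 and Kcng4 were the other members that rose. Kcnj5 was at 57.8, 53.0 and 61.3 CPM in siNeg and 88.2, 92.9 and 89.2 CPM in siSlc25a26, with no overlap and a log2 change of 0.62 (SE 0.06, adjusted p = 5.26e-05). Without siNeg replicate 2 the change was 0.56, just under the fold threshold. Its partner Kcnj3 overlapped between the groups (log2 change −0.22, SE 0.17, adjusted p = 0.313), and the FPKM ratio of Kcnj3 to Kcnj5 went from 0.362 to 0.569 in siNeg to 0.256 to 0.294 in siSlc25a26. The silent subunit Kcng4 had 9 to 17 counts in siNeg and 24 to 43 in siSlc25a26 (log2 change 1.19, SE 0.34, adjusted p = 0.0197), and lost its call without siNeg replicate 2 or 3 or siSlc25a26 replicate 3 (0.0558 to 0.0734).

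By adjusted p alone, Kcnj12 was higher (log2 change 0.33, SE 0.07, adjusted p = 0.00529), and Kcne4 (−0.54, SE 0.08, adjusted p = 0.000596) and Kcnk3 (−0.47, SE 0.12, adjusted p = 0.0102) were lower. Kcnh2, Kcnq1 and Kcng2 changed by less than their thresholds (log2 −0.10, 0.07 and −0.07; adjusted p 0.118, 0.384 and 0.472). Fibroblast markers were again lower in 7 of 10, with a sum of 12515.7 to 14044.4 CPM, and so were 5 of 8 mural, 4 of 7 macrophage, 1 of 7 endothelial, 2 of 4 neuron and glia and 1 of 10 cardiomyocyte markers (Myh6). Of 5 atrial or pacemaker markers, Hcn4 was higher and Myl7 lower. Their part in the channel changes, including that of Kcnmb1, was not tested.

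The third question was how PE changed the channel genes in the cells given siSlc25a26, and these groups share no library with the PE comparison under siNeg. Of 46 members tested, 2 rose and 12 fell, or 30.4%, where 20.5% of 13776 genes were called (10.1% higher and 10.4% lower). By adjusted p alone, which took 52.4% of all genes (26.4% higher and 26.0% lower), 1 more was higher and 4 more lower. On the log2(FPKM + 1) scale the share of calls over all genes that were higher went from 49.2% to 27.4%, with the median of all genes at −0.13. The log2 change was below 0 for 76.1% of the members tested and 50.3% of all genes, with medians of −0.38 and 0.00.

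Of 43 members tested for PE under both siRNAs, Kcne4, Kcnip2, Kcnip4 and Kcnj3 were called lower in both. The share of all genes called lower in both was not counted. Kcnip2 was at 5.27, 3.28 and 3.29 CPM with PE, below the 3 siSlc25a26 libraries (log2 change −2.46, SE 0.21, adjusted p = 1.87e-05). Kcnip4 had 39, 37 and 32 counts and then 1, 6 and 1, with a log2 change of −3.48 (SE 0.49, adjusted p = 0.000373) and an 11.7-fold lower count per library size (95% counting interval 5.74 to 27.8). Kcnj3 was at 13.1, 14.5 and 15.2 CPM and then at 4.72, 4.37 and 3.67 CPM (log2 change −1.74, SE 0.12, adjusted p = 4.87e-06). Kcne4 was at 36.9, 31.3 and 32.3 CPM and then at 16.1, 14.1 and 17.97 CPM (log2 change −1.05, SE 0.10, adjusted p = 4.56e-05). These 4 members were picked by their calls. None overlapped between the groups, and the share of all genes without overlap was not counted. None of the 4 had a difference between its PE effects that passed the threshold (adjusted p 0.198 for Kcne4, 0.294 for Kcnip2, 0.290 for Kcnip4 and 0.279 for Kcnj3).

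Beyond Kcnj3, Kcnh2 and 3 more inward rectifiers (Kcnj2, Kcnj11 and Kcnj12) were called lower in this arm. Of these, Kcnh2, Kcnj11 and Kcnj12 were also lower under siNeg, by adjusted p alone, and the difference between the PE effects was called for Kcnj2 alone of the 4. Kcnj2 was at 52.0, 55.8 and 57.7 CPM in siSlc25a26 and 29.1, 27.7 and 28.9 CPM with PE (log2 change −0.94, SE 0.06, adjusted p = 4.94e-06). Kcnh2 was at 210, 202 and 216 CPM and then at 122, 98.8 and 92.1 CPM (log2 change −0.995, SE 0.09, adjusted p = 3.13e-05). Both sets of libraries lay apart. Kcnj12 (−0.82, SE 0.10, adjusted p = 0.000197) and Kcnj11 (−0.75, SE 0.07, adjusted p = 4.38e-05) also fell, and the summed FPKM of the Kcnj family was 90.7 to 94.6 in siSlc25a26 and 48.7 to 54.8 with PE. Kcnj5 was lower by adjusted p alone (−0.37, SE 0.06, adjusted p = 0.000859).

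Kcnd2 fell in this arm. It was at 2.78, 2.72 and 2.41 CPM in siSlc25a26 and 1.16, 1.27 and 1.16 CPM with PE (log2 change −1.12, SE 0.18, adjusted p = 0.000704), and the groups did not overlap. Kcnt1 went from 7.49, 7.18 and 7.19 CPM to 3.55, 4.01 and 4.33 CPM (log2 change −0.87, SE 0.12, adjusted p = 0.000357). The M-current type pore Kcnq3 fell at low counts (log2 change −1.05, SE 0.34, adjusted p = 0.0291) and lost its call without siSlc25a26 replicate 2 or 3 or siSlc25a26 PE replicate 1 or 2 (0.0739 to 0.102).

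Kcnj10 rose from almost nothing. This inward rectifier, best known from glia and kidney, had 2, 3 and 1 counts in siSlc25a26 and 31, 25 and 37 in the libraries labelled siSlc25a26 PE. The log2 change was 4.08 (SE 0.41, adjusted p = 4.80e-05), and the ratio per library size was 17.9 (95% counting interval 7.90 to 49.9). Kcnj10 passed the low-count filter here only through the PE group, where it was high, so its p-value is not independent of that. Under siNeg it was too low to be tested, at 1, 2 and 2 counts without PE and 10, 12 and 8 with PE (ratio 6.40, interval 2.46 to 21.1). At a mean of 0.207 ± 0.0802 FPKM in its highest group it remained far below Kcnj2. Kcne1, also not tested, had 2, 1 and 1 counts and then 8, 32 and 19, a ratio of 17.0 (6.30 to 64.4).

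Kcnq1, the slow delayed rectifier pore, was higher by adjusted p alone (log2 change 0.25, SE 0.07, adjusted p = 0.0148), at 80.2, 86.4 and 91.9 CPM and then 110, 99.2 and 96.3 CPM. In this arm 1 of 10 fibroblast markers was lower (summed 8757.6 to 9530.72 CPM with PE). Of 8 mural markers 1 was lower and 3 higher, of 7 macrophage markers none was called, of 7 endothelial markers 1 rose and 1 fell, of 4 neuron and glia markers 1 rose, of 5 atrial or pacemaker markers 2 fell and of 10 cardiomyocyte markers 4 rose.

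The fourth comparison set the libraries labelled siSlc25a26 PE against siNeg PE, where the target did not differ. It shares its groups with both PE comparisons. Of 43 members tested, 4 were higher and 7 lower, or 25.6%, where 15.8% of 13671 genes were called (7.71% higher and 8.10% lower). By adjusted p alone, which took 40.1% of all genes (20.1% higher and 20.1% lower), 2 more were higher and 4 more lower. Leaving out siNeg PE replicate 1 or 3 or siSlc25a26 PE replicate 2 or 3 left 7 members called in each case.

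Kcnt1 was again the largest, and it passed the low-count filter only through the libraries labelled siSlc25a26 PE. It had 2, 0 and 1 counts in siNeg PE, where a count of 0 allows up to 0.117 to 0.120 CPM, and 91, 101 and 112 in the libraries labelled siSlc25a26 PE. The log2 change was 6.47 (SE 0.41, adjusted p = 5.13e-06), which depends on how a near-zero group is handled, and the count ratio per library size was 100 (95% counting interval 34.0 to 489). Kcnab2 was lower here as well as without PE (3.47 ± 0.491 against 1.79 ± 0.0752 CPM; log2 change −0.97, SE 0.17, adjusted p = 0.00238). Kcnt1 and Kcnab2 were the 2 members called the same way under the siRNA with and without PE. The share of all genes called the same way in both was not counted.

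Kcnd2 stood out among the pores. At 1.16 to 1.27 CPM it was lower than in every siNeg PE library (3.86 to 5.16 CPM), with a log2 change of −1.95 (SE 0.18, adjusted p = 5.77e-05). Kcnd3 was lower by adjusted p alone (−0.50, SE 0.14, adjusted p = 0.0204). The FPKM ratio of Kcnd2 to Kcnd3 was 0.564 to 0.678 in siNeg PE and 0.189 to 0.263 in the libraries labelled siSlc25a26 PE. Kcnip2 overlapped between these groups and missed the threshold (log2 change −0.86, SE 0.31, adjusted p = 0.0525), and its FPKM ratio to Kcnd2 plus Kcnd3, at 0.874 to 1.35, overlapped that of siNeg PE.

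Kcnj10, at 31, 25 and 37 counts against 10, 12 and 8, was higher (log2 change 1.60, SE 0.30, adjusted p = 0.00282). Here too it passed the low-count filter only through the libraries labelled siSlc25a26 PE, so its p-value is not independent of that. Kcnj2 (−0.66, SE 0.12, adjusted p = 0.00272), Kcnj3 (−0.68, SE 0.17, adjusted p = 0.0110) and Kcnh2 (−0.60, SE 0.11, adjusted p = 0.00277) were lower and did not overlap, but their folds lay near the threshold. Kcnj2 lost its call without siNeg PE replicate 3 (log2 change −0.51), Kcnj3 without siNeg PE replicate 3 or siSlc25a26 PE replicate 3 (highest log2 change −0.53), and Kcnh2 without siNeg PE replicate 1 or siSlc25a26 PE replicate 2 or 3 (highest −0.51).

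The other 4 calls were of low members that single libraries decided. Kcnab1 (log2 change −1.34, SE 0.46, adjusted p = 0.0439) and the neuronal beta subunit Kcnmb4 (−1.07, SE 0.35, adjusted p = 0.0380) were lower, and Kcnn3 (0.89, SE 0.29, adjusted p = 0.0357) and Kcns3 (0.88, SE 0.30, adjusted p = 0.0459) higher. Kcnab1 kept its call only without siSlc25a26 PE replicate 3 (adjusted p without the others 0.0718 to 0.127), Kcnmb4 only without siSlc25a26 PE replicate 2 (0.0712 to 0.113), Kcnn3 only without siSlc25a26 PE replicate 1 (0.0620 to 0.117) and Kcns3 only without siNeg PE replicate 2 or siSlc25a26 PE replicate 1 (0.0975 to 0.143). Beside these values, 5 of 10 fibroblast markers were lower and 1 higher, 3 of 8 mural markers lower and 1 higher, 1 of 6 macrophage and 1 of 4 neuron and glia markers lower, Hcn4 was higher and Myl7 lower among 5 atrial or pacemaker markers, and none of 6 endothelial or 10 cardiomyocyte markers was called.

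**Figure D3:**
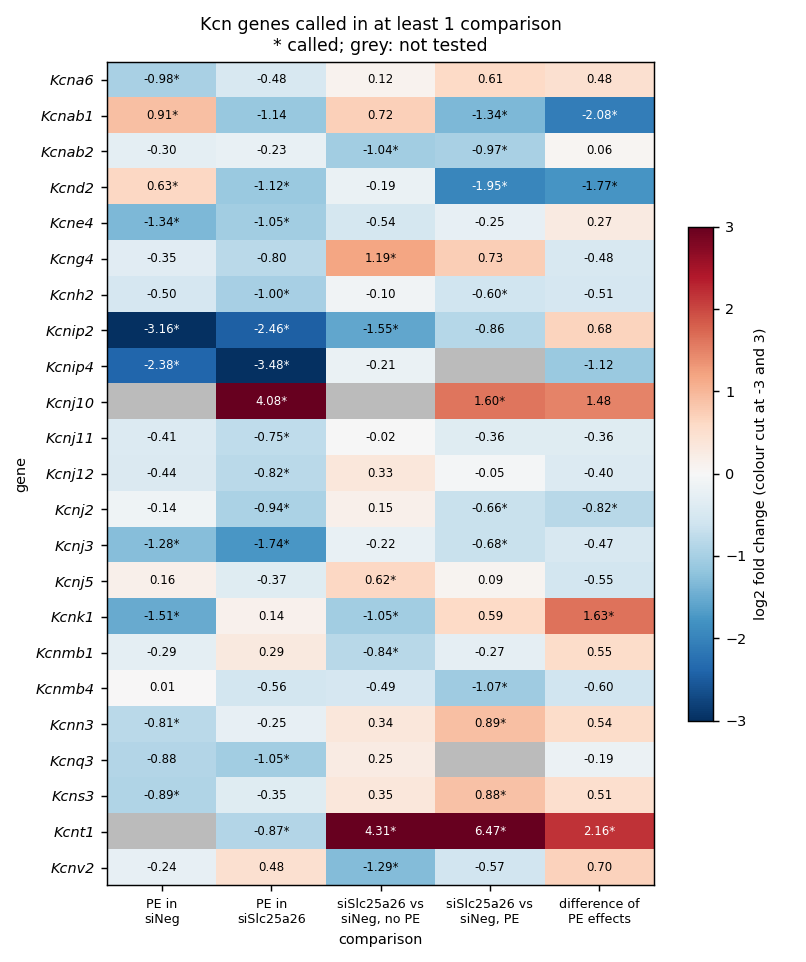
Log2 fold changes of 23 members called in at least 1 comparison, in the 4 pairwise comparisons and in the difference between the PE effects, with called values starred and untested cells in grey. Values for PE are mostly below 0 in both siRNA columns, while the siRNA columns hold both signs, from −1.95 for Kcnd2 to 6.47 for Kcnt1.

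The last question was whether the PE effect itself differed between the siRNAs, tested as an interaction over all 12 libraries. Of 49 members tested, 5 were called, or 10.2%, where 5.50% of 14097 genes were called (2.16% higher and 3.34% lower), and 2 more had an adjusted p below 0.05 alone, a rule that took 11.2% of all genes (5.48% higher and 5.73% lower). On log2(FPKM + 1) the share of calls over all genes that were higher went from 39.3% to 23.4%, with the median of all genes at −0.11. The median difference was 0.00 for the members tested and −0.05 for all genes. For Kcnk3 the log2 PE effects were −0.57 and −0.55 (difference 0.00, SE 0.19).

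Kcnd2 had the clearest difference, with a rise under siNeg and a fall in the other arm (difference −1.77, SE 0.22, adjusted p = 0.000540). Kcnj2 followed (−0.82, SE 0.18, adjusted p = 0.0128), and both calls were kept when any 1 library was left out. Kcnh2 (−0.51, SE 0.13, adjusted p = 0.0274) and Kcnj5 (−0.55, SE 0.10, adjusted p = 0.00435) differed by less than 1.5-fold. For Kcnj2, Kcnh2 and Kcnj5 the PE effect was the lower in the arm labelled siSlc25a26.

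Kcnk1 differed in the other direction (1.63, SE 0.41, adjusted p = 0.0255), since it stood at 14, 11 and 12 counts in the libraries labelled siSlc25a26 PE and had fallen only under siNeg. Leaving out siNeg replicate 2, siNeg PE replicate 2 or 3, siSlc25a26 replicate 2 or 3, or siSlc25a26 PE replicate 1 or 2 ended this call (adjusted p 0.0513 to 0.0718). Kcnab1 (−2.08, SE 0.58, adjusted p = 0.0377) rested on at most 17 counts per library. It lost its call without siNeg replicate 1 or 2, siNeg PE replicate 1, 2 or 3, siSlc25a26 replicate 1 or 3, or siSlc25a26 PE replicate 1 or 2 (0.0501 to 0.0951).

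Kcnt1 gave a difference of 2.16 (SE 0.62, adjusted p = 0.0429) on the count scale. The sign depends on the scale, because siNeg PE was near 0. On log2(FPKM + 1) the difference was −0.36 (limma, adjusted p = 0.00591) and on log2(FPKM + 0.1) it was −0.34 (adjusted p = 0.313). The call was also lost without siNeg replicate 1 or 3, siNeg PE replicate 2 or 3, any siSlc25a26 library, or siSlc25a26 PE replicate 2 or 3 (0.0634 to 0.139). Without siNeg PE replicate 3, siSlc25a26 replicate 3 or siSlc25a26 PE replicate 2 the number of members called went from 5 to 2, and without siNeg replicate 1 or 2, siNeg PE replicate 2 or siSlc25a26 replicate 1 or 2 it went to 3.

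**Figure D4:**
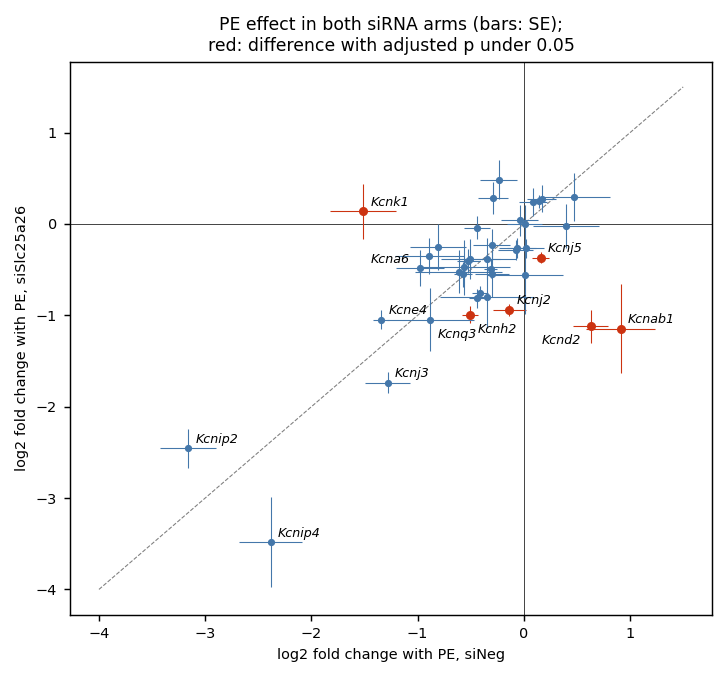
PE effect on 40 members tested in both siRNA arms, with the log2 change under siNeg on the x axis and under siSlc25a26 on the y axis, bars for the SE, a dashed line of equal effects and the members whose difference had an adjusted p below 0.05 in red. Kcnip2, Kcnip4, Kcnj3 and Kcne4 lie far below 0 on both axes, and Kcnd2 and Kcnab1 lie right of 0 and below it.

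Partners of the channels outside the Kcn name were called about as often as all genes with PE under siNeg. Of 16 partner genes, 11 were tested there and 2 called, beside 20.7% of all genes. Akap9, an anchor of the Kcnq1 complex, rose (log2 change 0.76, SE 0.27, adjusted p = 0.0470). Its groups overlapped, at 14.5, 17.2 and 23.2 CPM in siNeg and 18.7, 36.3 and 38.5 CPM in siNeg PE. Dpp6, a Kv4 accessory subunit, fell (−1.23, SE 0.40, adjusted p = 0.0327) at low levels, 0.616 to 0.996 CPM in siNeg and 0.159 to 0.439 CPM in siNeg PE. Leaving out single libraries was not done for these 2 genes. With siSlc25a26 without PE, which shares the siNeg libraries, 2 of 11 were called beside 16.1% of all genes, again Akap9 and Dpp6 (0.60, SE 0.17, adjusted p = 0.0188, and −1.08, SE 0.38, adjusted p = 0.0458). Abcc9, the sulfonylurea receptor of the ventricular ATP-sensitive channel, was the only one of 10 called with PE in the siSlc25a26 arm (−0.70, SE 0.05, adjusted p = 3.79e-06), beside Kcnj11, its pore. Ank2, an ankyrin, was the only one of 10 called between the 2 PE groups (−0.68, SE 0.12, adjusted p = 0.00196), and none of 11 was called for the difference.

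The sodium-potassium pump restores the potassium gradient, and 7 of its genes were tested. The beta subunit Atp1b1 and the regulator Fxyd1 rose with PE under either siRNA (log2 0.61 and 0.66 under siNeg, 0.66 and 0.80 in the other arm). Atp1b2 fell with PE in the siSlc25a26 arm (−1.09, SE 0.14, adjusted p = 0.000205) and was the 1 gene of the list called for the difference (−0.74, SE 0.18, adjusted p = 0.0236).

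Of 12 transcription factors known to act on cardiac potassium channel genes, Etv1 (log2 change −0.62, SE 0.17, adjusted p = 0.0147) and Irx3 (−0.67, SE 0.08, adjusted p = 0.000441) fell with PE under siNeg. Of all genes, 8.24% were called lower there. In the siSlc25a26 arm, 6 fell with PE (Etv1, Irx1, Irx3, Irx4, Irx5 and Tbx5, log2 −1.61 to −0.70) and Gata4 rose (0.61, SE 0.04, adjusted p = 6.66e-06). The shares of all genes called in that arm were 10.4% lower and 10.1% higher. Klf15, which acts on Kcnip2 in a circadian manner, was lower with siSlc25a26 without PE (−0.63, SE 0.11, adjusted p = 0.00223) and between the PE groups (−0.76, SE 0.09, adjusted p = 0.000262), where Irx1 was lower too. With PE, Klf15 was called under neither siRNA, at 24.6, 31.2 and 26.1 CPM in siNeg and 24.5, 21.9 and 26.0 CPM in siNeg PE. Irx1, Irx3 and Irx4 were called for the difference (−1.05, −0.65 and −0.69), beside 3.34% of all genes called lower for it. Their part in the channel values was not tested.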

How the data were processed

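RNA of 12 libraries from cultured NRVMs, 3 independent samples in each of 4 groups by the sample labels, was sequenced at BGI. The authors deposited expected counts per gene (20.8% to 21.9% of values were not whole) and FPKM per gene. The submitters' processing notes name HISAT, Bowtie2 and Rnor_6.0; the counting program, annotation and strand setting were not given in the sources used here. The paper that cites these data describes another siRNA, siNap1l5, and other treatment times, so groups follow the labels.

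Expected counts were rounded and normalized by TMM, filtered by filterByExpr and tested by the quasi-likelihood method of edgeR 4.0.16 (R 4.3.3) on the 6 libraries of each comparison, or 12 for the interaction, without a replicate block. Adjusted p is Benjamini-Hochberg over all genes tested. A gene was called at a fold over 1.5 and adjusted p below 0.05. Alternatives were DESeq2 1.42.0, limma 3.58.1 (voom, or log2(FPKM + 1) and log2(FPKM + 0.1)), other size factors and filters, no fold threshold, a replicate block, all 12 libraries, and leaving out each library. The procedure was tested on simulated data. Counting intervals are exact 95% intervals and cover counting error only. Statistics are given for a list of cardiac channel genes, for up to 10 called members per direction and comparison, and for the 5 highest by FPKM. The members and lists were chosen with earlier results of these data known. Promoters are from RefSeq (GRCr8), and all 84 members were matched by gene ID. A further 13 RefSeq Kcn genes were not analysed here. Some genes are counted in the totals but are not reported or plotted here.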

Additional observations from a re-analysis of the deposited data

Results flagged for a closer look

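The PE effect differed between the siRNA arms for 7 members in the interaction test over 12 libraries (edgeR's quasi-likelihood test). The log2 difference, siSlc25a26 arm minus siNeg arm, was −2.08 for Kcnab1 (adjusted p = 0.0377), −1.77 for Kcnd2 (adjusted p = 0.000540), −0.82 for Kcnj2 (adjusted p = 0.0128), −0.55 for Kcnj5 (adjusted p = 0.00435) and −0.51 for Kcnh2 (adjusted p = 0.0274). It was 1.63 for Kcnk1 (adjusted p = 0.0255) and 2.16 for Kcnt1 (adjusted p = 0.0429). All these differences rest on libraries labelled siSlc25a26 PE in which Slc25a26 was not lower than in siNeg PE, and the part of this in the differences was not tested.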

How the results depend on the processing

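Of 47 called pairs of a member and a comparison, 18 kept their call under every alternative that gave a value and 29 lost it under at least 1. Of 98 uncalled pairs followed, 10 were called under some alternative. The number of members called moved from 10 to 5 for PE in siNeg, from 8 to 3 for siSlc25a26 without PE and from 11 to 4 under PE with limma on log2(FPKM + 1), a scale that shrinks low genes by construction. Without the fold threshold it was 18 for PE in siNeg and 17 for siSlc25a26 under PE. The difference between PE effects went from 5 members to 2 with DESeq2 and to 2 with a minimum of 10 counts in every library; for the latter fewer members were tested (35), and for the former the cause was not tested. Leaving out single libraries gave 8 to 10 members for PE in siNeg, 7 to 10 for siSlc25a26 without PE, 7 to 11 under PE, 11 to 18 for PE in siSlc25a26 and 2 to 7 for the difference. The Kcnt1 difference turned to −0.36 on log2(FPKM + 1) and −0.34 on log2(FPKM + 0.1). FPKM moved the median change of all genes to −0.13 and −0.17 for PE in siSlc25a26 and to −0.11 and −0.14 for the difference. The higher share of all calls went from 49.2% to 27.4% and 27.1% for PE in siSlc25a26 and from 39.3% to 23.4% and 22.1% for the difference.

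With the replicate number as a block, 9, 7, 11, 14 and 5 members were called, in the order PE in siNeg, siSlc25a26 without PE, siSlc25a26 under PE, PE in siSlc25a26 and the difference. The numbers were not shown to pair the libraries. Deviations of same-numbered libraries correlated at 0.0481 to 0.443, −0.0012 to 0.0954, −0.0147 to 0.380 and −0.140 to −0.0574 in the 4 pairwise comparisons, and 4, 2, 4 and 0 of 6 libraries correlated best with their own number. Members with under about 10 counts per library are limited by depth.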
